A study of Mus musculus with 4 samples.

Results

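The cells described here were cardiac endothelial cells (ECs) with transcripts of Aplnr, picked from scecRNA-seq, the sequencing of RNA from single cells of the cardiac endothelium, of mice with heart failure with preserved ejection fraction (HFpEF) and of normal control (NC) mice. Aplnr encodes the apelin receptor, a G protein-coupled receptor on the surface of ECs. Its ligands are the secreted peptides apelin (Apln) and apela (Apela), and the receptor couples to inhibitory G proteins and to beta-arrestin. In growing vessels, tip cells at the front release apelin, and the receptor is known for its presence on venous and capillary ECs, where signaling acts on vessel caliber, endothelial nitric oxide and fatty acid uptake.

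A cell was a member if it had at least 2 unique molecular identifiers (UMIs, each standing for 1 captured transcript) of Aplnr and passed a set of limits on other genes. It had more than 200 genes, under 20% mitochondrial and under 1% hemoglobin UMIs, and at least 3 UMIs over the EC genes Pecam1, Cdh5, Kdr, Tie1, Egfl7 and Cldn5. No UMI of the tip cell genes Apln and Pgf, of the venular selectin gene Selp or of the arterial genes Gja4, Gja5, Hey1 and Sema3g was allowed. The summed UMIs could reach 2 for the capillary genes Timp4, Car4 and C1qtnf9, 1 for Il6, Adamts4 and Plaur, 2 for the interferon-induced genes Ifit1, Ifit2, Ifit3, Ifit3b and Oasl1, and 1 for the mural genes Kcnj8, Abcc9, Vtn and Pdgfrb. Of 41843 cells, 39829 passed the cell filters and 36364 counted as ECs. The rule found 225 members, which are 0.619% of the ECs.

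The data comprised 4 libraries of sorted RFP-positive left ventricular cells, 2 of NC mice on a chow diet and 2 of HFpEF mice on a high-fat diet (HFD) plus the nitric oxide synthase inhibitor L-NAME. The study's methods give 10% and 60% of energy from fat and L-NAME at 0.5 g/L in the drinking water. Its results state 20 weeks of the HFpEF diet for lineage-tracing mice. All mice carried Cdh5-CreER and R26-stop-tdTomato, so that tamoxifen, given from an age of 7 weeks, marked cells in which the Cdh5 promoter had been active. They also carried 1 or 2 floxed Scarb1 alleles (the genotypes Sfl/+/RΔEC and Sfl/fl/RΔEC), so Scarb1, the gene of the lipoprotein receptor SR-B1, was recombined in both. The study describes 4 groups of mice, each diet in both genotypes, so the 4 libraries are likely 1 of each group, but the labels give the diet alone and which library is which genotype was not assigned. The libraries of a diet are then not plain replicates, and the number of mice per library was not found in the sources used here. The p-values below therefore measure the spread between libraries, and any genotype effect is part of that spread.

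Members were unevenly spread over the libraries, with 12 in NC library 1, 27 in NC library 2, 25 in HFpEF library 1 and 161 in HFpEF library 2. Their summed UMIs were 33643, 112133, 50266 and 396835 in that order, so 1 UMI was worth 29.7, 8.92, 19.9 and 2.52 CPM (counts of a gene scaled to a fixed common library sum). Median UMIs per member cell were 2500.5, 3996, 1853 and 2205. Over all ECs the medians were 3846, 4207.5, 1823 and 1766, so the NC libraries were the deeper ones. HFpEF library 2 shared 41 to 42 cell barcodes with each other library and the other pairs shared 10 to 20.

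Most members lay at the edge of the rule. Exactly 2 Aplnr UMIs were held by 9 of 12, 20 of 27, 21 of 25 and 121 of 161 members, and the highest count in 1 cell was 5. Cells with 1 Aplnr UMI that met every other limit lay just outside and numbered 62, 63, 156 and 663. Those outside had 1707, 1916, 1628 and 1833 CPM of the capillary gene Gpihbp1, and members with 2 Aplnr UMIs had 994, 1689, 1838 and 1705 CPM. No direction across the threshold was shared by the 4 libraries. The cells with 2 UMIs were lower than those with 1 in 3 libraries and higher in HFpEF library 1.

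Among the limits applied after the Aplnr threshold, that on Timp4, Car4 and C1qtnf9 removed the most cells. Of 1621 ECs with at least 2 Aplnr UMIs, 1442 also lacked Apln, Pgf and Selp, and the capillary limit then removed 1133 of them and kept 309. It kept 7.14% and 7.99% of those cells in NC and 34.4% and 37.3% of them in HFpEF. Aplnr-positive cells with more of these capillary transcripts were therefore far more numerous than the members, above all in the NC libraries. The limits are fixed UMI numbers, so they bind sooner in deeper cells.

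The share of members among ECs was higher in both HFpEF libraries than in both NC libraries, but this order depended on the capillary limit. Members made up 0.177% of ECs in NC library 1 (95% exact Clopper-Pearson interval 0.0913 to 0.308), 0.425% in NC library 2 (0.280 to 0.618), 0.509% in HFpEF library 1 (0.33 to 0.751) and 0.879% in HFpEF library 2 (0.749 to 1.03). The intervals, which cover counting error only, overlapped between NC library 2 and HFpEF library 1. The means were 0.301% ± 0.176 for NC and 0.694% ± 0.261 for HFpEF (SD, n = 2 libraries each). With 2 against 2 libraries no two-sided exact permutation test can give a p below 0.333, so the share was not tested.

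Thinning every EC to 1000 UMIs and asking for at least 1 Aplnr UMI gave 2.42%, 3.91%, 4.24% and 5.60% in the same library order, with 223, 182, 635 and 3535 ECs too shallow to enter. NC library 2 and HFpEF library 1 again overlapped in their intervals (3.44 to 4.42 and 3.65 to 4.88). Without the capillary limit the thinned shares were 3.90%, 6.44%, 5.34% and 6.55%, and the diets overlapped. Without that limit and without thinning, ECs with at least 2 Aplnr UMIs were 2.06%, 5.51%, 1.47% and 2.04%, which placed NC higher on average. Summed over all ECs, the Aplnr level was 50.9 and 81.6 CPM for NC, with 62.1 and 82.3 CPM for HFpEF. This level differed more within a diet than between the diets, and edgeR's quasi-likelihood test over all ECs gave a log2 fold change of 0.15 (SE 0.23, Benjamini-Hochberg adjusted p = 0.783).

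**Figure D1:**
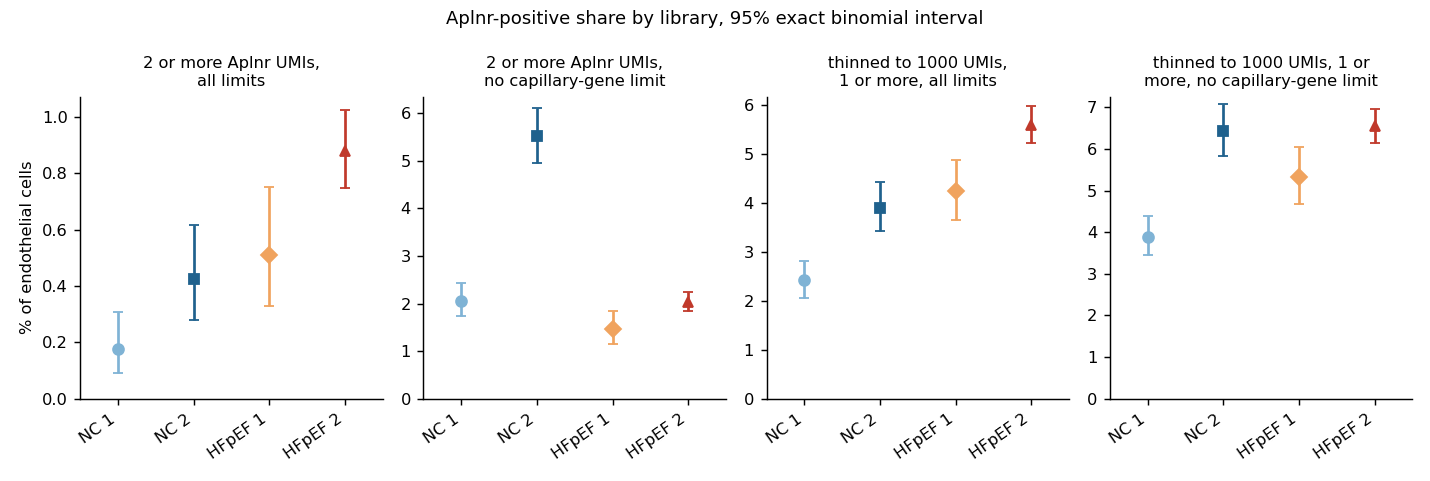
Share of ECs that were Aplnr-positive in each library (vertical axes in % of ECs; points, share; bars, 95% exact binomial interval), with and without the limit on Timp4, Car4 and C1qtnf9, as counted and after thinning to 1000 UMIs per cell. With all limits the HFpEF libraries lie above the NC libraries (0.509% and 0.879% against 0.177% and 0.425%), and as counted without the capillary limit NC library 2 is at 5.51%, above the other libraries.

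Aplnr is used as a mark of venous capillary cells, and whether the members were venous was checked against marker genes. The levels below are plain CPM of UMIs summed over the cells of a library. Comparison cells were 8174 quiescent capillary ECs, which met the same limits but had no Aplnr UMI and at least 3 UMIs of Timp4, Car4 and C1qtnf9, and 183 vein ECs with at least 1 Selp and 2 Vwf UMIs. A further 9730 ECs met every limit of the rule and had no Aplnr UMI. Aplnr itself, which chose the members, stood at 862, 562, 1074 and 945 CPM in them and at 46.0 to 50.4 CPM in vein ECs. All of these are descriptions with no test, since the rule used the contrast.

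Most venous genes were well below vein ECs in the members. Nr2f2, the transcription factor that sets venous identity, was at 59.4, 53.5, 19.9 and 55.4 CPM in members, where quiescent capillary ECs had 27.1 to 39.3 CPM and vein ECs 242 to 322 CPM. Vwf, the gene of von Willebrand factor, was at 416, 17.8, 99.5 and 60.5 CPM in members and at 1349 to 2020 CPM in vein ECs. Vwf had chosen the vein ECs, so that gap was built in. A single cell held 12 of the 14 Vwf UMIs of NC library 1 and another held all 5 of HFpEF library 1. The adhesion molecule gene Vcam1 was at 59.4, 26.8, 298 and 50.4 CPM against 1047 to 1594 CPM in vein ECs, and 1 cell held 10 of the 15 UMIs of HFpEF library 1.

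No member had a UMI of Ackr1, a venular chemokine receptor, and Mgp and Bgn, genes of matrix proteins of larger vessels, were below vein ECs in every library. Of the 12 venous genes, 8 reached a mean of 20 CPM in members. None of the 8 was above quiescent capillary ECs in all 4 libraries, where 10.6% of 6037 genes of that level were. Leaving out Vwf, 4 of 7 venous genes (57.1%) were below vein ECs in all 4 libraries, against 9.26% of all genes. Ephb4, a receptor typical of veins, was at 178, 187, 19.9 and 151 CPM in members and at 215, 148, 76.6 and 174 CPM in vein ECs, so it was near the vein level outside HFpEF library 1, where members had 1 UMI. Only Nrp2, a coreceptor for VEGF-C, was higher in members (208, 383, 338 and 388 CPM) than in the Aplnr-free ECs within the same limits (188, 218, 216 and 223 CPM) in 4 of 4 libraries among these 8, with 10.6% of all genes also higher there. Summed without Vwf, the venous list stood at 654, 740, 875 and 764 CPM in members, at 446 to 504 CPM in quiescent capillary ECs and at 4408 to 5242 CPM in vein ECs. The Aplnr-free ECs within the same limits stood at 1846, 1678, 590 and 686 CPM. Endocardial genes in the Aplnr-free ECs summed to 300, 232, 37.6 and 37.3 CPM, and fibroblast genes to 364, 179, 44.2 and 58.0 CPM. How far such cells set the venous sum of that group was not tested. The members thus lay above quiescent capillary ECs in 4 of 4 libraries, far below vein ECs, and below the Aplnr-free ECs in both NC libraries but above them in both HFpEF libraries. These values do not place them with either group, so the venous name was not used and the cells are called Aplnr-positive ECs here.

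Capillary genes outside the 3 that the rule limits were mostly above the vein level. Gpihbp1, which carries lipoprotein lipase across capillary ECs, was at 1397, 1596, 1751 and 1663 CPM, below quiescent capillary ECs in every library (2182 to 3050 CPM) and above vein ECs in 3 of 4 (650 to 1531 CPM). In NC library 1 vein ECs were the higher ones. The fatty acid transporter gene Cd36 was at 4310, 3808, 4834 and 5050 CPM and exceeded the vein level of its own library in each case. Kdr, the main VEGF receptor of capillaries and 1 of the genes of the rule's EC sum, was at 1308, 1516, 1293 and 1525 CPM in members, at 1214 to 1707 CPM in quiescent capillary ECs and at 412 to 565 CPM in vein ECs.

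Rgcc, Cd300lg, Btnl9 and Meox2 were also above vein ECs in 4 of 4 libraries. With Cd36 these were 5 of 8 capillary genes outside the rule (62.5%), where 14.0% of all genes were. Of the same 8, 5 were below quiescent capillary ECs in 4 of 4 libraries (62.5%, against 5.55% of all genes). These cells had been selected for 3 other capillary genes, so some distance was built in. Against the Aplnr-free ECs within the same limits, 2 of the 8 capillary genes, Aqp1 and Meox2, were higher in every library. Another 2, Cd300lg and Btnl9, were lower in every library. Of all genes, 10.6% were higher and 5.78% lower there.

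**Figure D2:**
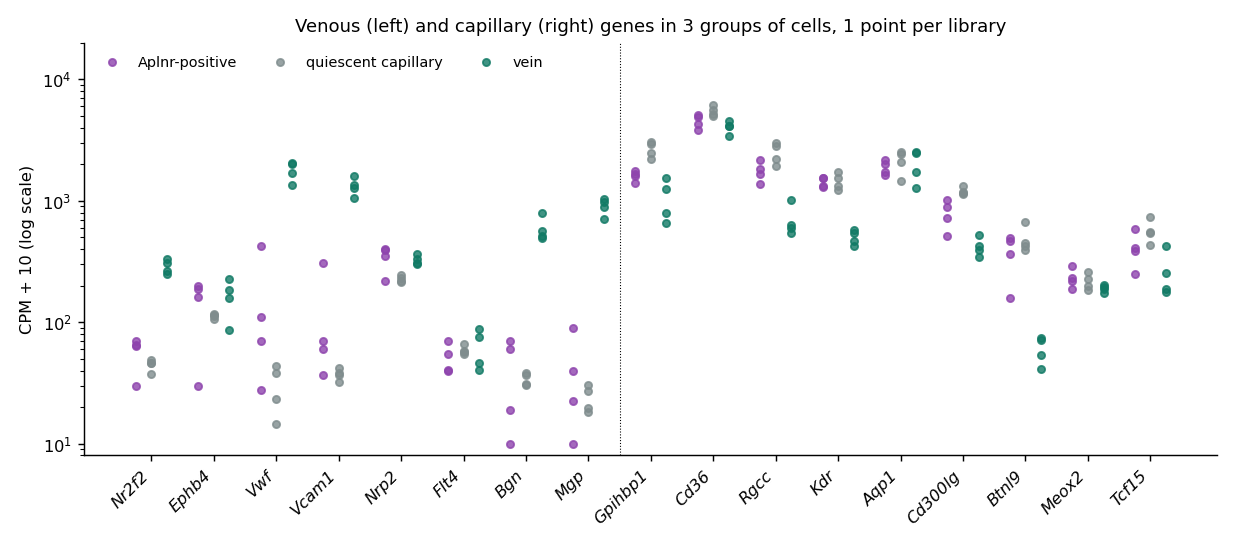
Levels of 8 venous and 9 capillary genes (CPM + 10, log axis) in Aplnr-positive, quiescent capillary and vein ECs, with 1 point per library and cell group. The Aplnr-positive points for Nr2f2, Vwf, Vcam1, Bgn and Mgp lie below all vein points, and those for Cd36, Rgcc, Kdr and Btnl9 follow the quiescent capillary points more closely.

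Of the 6 arterial genes outside the rule that reached 20 CPM, Efnb2, the ligand of EphB4, and Dll4, a Notch ligand, were lower than in quiescent capillary ECs in 4 of 4 libraries (33.3%, against 5.55% of all genes) and none was higher. With Unc5b, 3 of the 6 were lower than in the Aplnr-free ECs (50%, against 5.78%). Pdgfb, a mural cell attractant made by tip and capillary ECs, was at 238, 285, 259 and 275 CPM and higher than in all 3 comparison groups in every library. Of the 5 tip list genes outside the rule at 20 CPM, 1 was higher than quiescent capillary ECs in every library (20%, against 10.6% of all genes). The count was also 1 of 5 over the Aplnr-free ECs (20%, against 10.6%) and 3 of 5 over vein ECs (60%, against 14.0%). Of the other tip cell genes that reached 20 CPM, Mcam, Trp53i11 and Adm were above quiescent capillary ECs in 2 or 3 libraries, and Dll4, also on this list, in none.

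Among the partners of the receptor, neither ligand was found in the members. Apln was at 0 by the rule, and Apela had no UMI in any of them. Gnai2, an inhibitory G protein subunit, was at 1932, 1266, 1432 and 1605 CPM, above quiescent capillary ECs (1557, 1239, 1179 and 1411 CPM) in 4 of 4 libraries. Mef2c, a transcription factor downstream of apelin signaling in ECs, was at 327, 410, 338 and 383 CPM against 248, 269, 281 and 298 CPM. Of the 13 genes on this list that reached 20 CPM outside the rule, these 2 were higher in every library (15.4%, near the 10.6% of all genes) and none was lower. Klf2 and Klf4, which respond to flow, and Nos3, the endothelial nitric oxide synthase gene, crossed the quiescent level from library to library.

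Of 8 angiopoietin and VEGF receptor list genes outside the rule at 20 CPM or more, Tek and Vegfc were higher than in quiescent capillary ECs in 4 of 4 libraries (25%, against 10.6%). Tek, the angiopoietin receptor gene, stood at 268, 241, 418 and 204 CPM in members and at 231, 183, 233 and 187 CPM in quiescent capillary ECs. Of 13 basement membrane genes, Col4a1, Col4a2 and Col15a1 were above quiescent capillary ECs in 4 of 4 libraries (23.1%, against 10.6%). Col4a2, a chain of type IV collagen, was at 951, 749, 497 and 748 CPM in members and at 577, 521, 412 and 680 CPM in quiescent capillary ECs.

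The genes that led the members over quiescent capillary ECs were picked by the smallest ratio over the 4 libraries, with 10 CPM added to both sides and a mean of at least 50 CPM. After Aplnr they were Phactr1, Entpd1, Ankrd33b, Sin3a, Arl6ip6, Ptcd2, Prpf19, Arrdc4, Prcp and 2200002D01Rik. Phactr1, a regulator of actin and protein phosphatase 1, was at 149, 71.3, 59.7 and 63.0 CPM in members and at 22.4 to 26.9 CPM in quiescent capillary ECs. Entpd1, the ectonucleotidase CD39, was at 119, 89.2, 79.6 and 65.5 CPM against 21.3 to 30.4 CPM. Prcp, a lysosomal carboxypeptidase, was at 89.2, 134, 139 and 106 CPM against 45.1 to 56.7 CPM.

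Against vein ECs, 6 of the 10 leading genes were higher in 4 of 4 libraries and 4 were lower, namely Entpd1, Ankrd33b, Prcp and 2200002D01Rik. Over the 6037 genes of at least 20 CPM, 14.0% were higher and 9.26% lower than vein ECs in 4 of 4 libraries. The 10 genes were picked for high levels in the members, which favors the higher side. Entpd1 was at 188, 187, 353 and 224 CPM in vein ECs. These are small counts. Phactr1 had 5, 8, 3 and 25 UMIs in the members and Entpd1 had 4, 10, 4 and 26, so single transcripts moved the CPM in NC library 1 and HFpEF library 1. Over the Aplnr-free ECs within the same limits, Phactr1 and Prcp led, followed by Aqp1, the capillary water channel gene, at 1992, 1703, 2149 and 1623 CPM in members against 1086, 1005, 1262 and 976 CPM. Aqp1 was evenly higher in every library. It was below quiescent capillary ECs in both NC libraries and above them in both HFpEF libraries.

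On the lower side, Car4, Timp4 and C1qtnf9 came first, as the rule requires, followed by Pth1r and Castor1. Pth1r, the receptor of parathyroid hormone, had 0, 1, 0 and 8 UMIs in the members (0, 8.92, 0 and 20.2 CPM) where quiescent capillary ECs had 21.4, 55.7, 51.4 and 73.5 CPM. Castor1, an arginine sensor of the mTORC1 pathway, was at 29.7, 17.8, 19.9 and 7.56 CPM against 86.0, 56.8, 50.5 and 29.4 CPM.

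**Figure D3:**
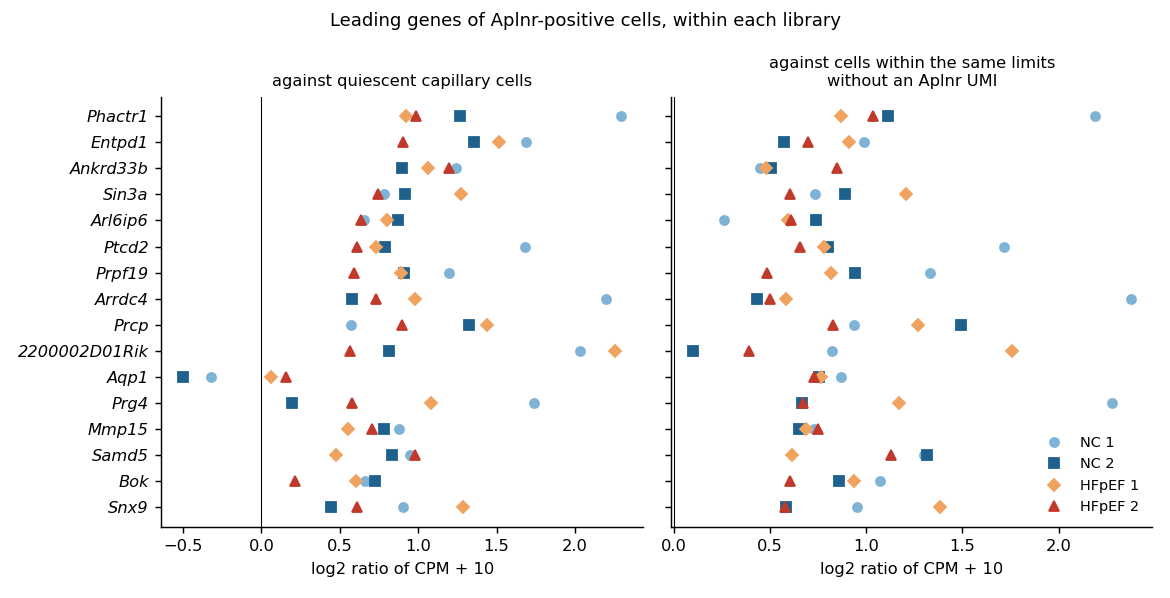
Log2 ratio of CPM + 10 of Aplnr-positive ECs over quiescent capillary ECs (left) and over Aplnr-free ECs within the same limits (right), for leading genes, with 1 point per library. Phactr1 lies above 0 in all 8 comparisons, with its lowest value at 0.87, and Aqp1 crosses 0 on the left and lies between 0.73 and 0.87 on the right.

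Markers of other cell types were rare in the members. All 5 T cell genes were at 0, fibroblast genes had 6 UMIs over all 4 libraries with Dcn at 0, and lymphatic genes had 1. Pericyte genes summed to 0, 241, 79.6 and 42.8 CPM, mostly Rgs5, and 1 cell held 13 of the 26 Rgs5 UMIs of NC library 2. Cardiomyocyte genes summed to 29.7, 71.3, 497 and 136 CPM, led by Myl2, and quiescent capillary ECs of the same libraries had 157, 113, 453 and 137 CPM. The cardiomyocyte transcripts were thus highest in HFpEF library 1 in both groups of cells. Myeloid genes had UMIs in HFpEF library 2 alone, 24 in all, of which 1 cell held 14 of S100a9. The part of these transcripts in the results below was not tested.

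HFpEF was then compared with NC within the Aplnr-positive ECs, on UMIs summed per library. The capillary limit had kept a smaller share of cells in NC than in HFpEF, and its part in the differences below was not tested. Expression was higher in HFpEF for the inducible heat shock genes Hspa1b and Hspa1a, 70-kDa chaperones that bind unfolded proteins, and no other gene passed the test. Levels from here on are CPM scaled with trimmed mean of M-values (TMM) factors. Hspa1b was at 3002 and 1533 CPM in NC and at 7900 and 7291 CPM in HFpEF. Both HFpEF libraries were above both NC libraries, and Hspa1b rose by a log2 fold change of 1.83 (SE 0.26, edgeR's quasi-likelihood test, Benjamini-Hochberg adjusted p = 0.000311). Hspa1a was at 3660 and 2919 CPM in NC and at 9834 and 8549 CPM in HFpEF. It rose by 1.5 (SE 0.22, adjusted p = 0.000311).

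These were 2 calls among 1347 genes tested, a share of 0.148%. Leaving out 1 library moved the count to 11 (without NC library 1), 12 (without NC library 2), 2 (without HFpEF library 1) and 4 (without HFpEF library 2). At an unadjusted p under 0.05 there were 46 genes higher (3.41%) and 27 lower (2.00%) in HFpEF. The diets did not overlap for 240 genes that were higher in HFpEF (17.8%) and for 216 that were lower (16.0%). Cells with a Hspa1a UMI were 7 of 12, 21 of 27, 24 of 25 and 143 of 161, and the most that 1 cell held was 30 of 89, 33 of 238, 58 of 356 and 88 of 2480 UMIs. The tests lost the 2 calls when no filter on low counts was used (edgeR adjusted p = 0.0731 for Hspa1b and 0.668 for Hspa1a), among members with at least 1000 and under 4000 UMIs (adjusted p = 0.107 for Hspa1b and 0.183 for Hspa1a) and at 3 or more Aplnr UMIs (adjusted p = 0.825 for both). Both genes had higher fitted levels in HFpEF in each case.

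Hspa1a lies on chr17:34969190-34972156 and Hspa1b on chr17:34956436-34959238 of GRCm38, both on the minus strand and both protein coding. The genes are near-identical copies, so the counting may have split their reads, and the pair is best read together. The promoters are shown because these are the only genes called. Hsph1 was picked from the genes called in the wider set of cells described further on. Each runs from 250 bases before the start to 50 after it (RefSeq, GRCm38.p6, coding strand, 5′ to 3′). Capitals mark the fixed letters of heat shock element dyads, GAANNTTC and TTCNNGAA, which read the same on both strands and can share 3 letters.
Hspa1a, chr17:34972107-34972406: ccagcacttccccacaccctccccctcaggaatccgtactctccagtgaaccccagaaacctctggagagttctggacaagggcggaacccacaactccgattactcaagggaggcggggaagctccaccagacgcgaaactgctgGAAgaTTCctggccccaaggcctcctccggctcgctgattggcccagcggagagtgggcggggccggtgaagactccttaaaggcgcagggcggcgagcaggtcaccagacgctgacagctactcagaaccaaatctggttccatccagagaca
Hspa1b, chr17:34959189-34959488: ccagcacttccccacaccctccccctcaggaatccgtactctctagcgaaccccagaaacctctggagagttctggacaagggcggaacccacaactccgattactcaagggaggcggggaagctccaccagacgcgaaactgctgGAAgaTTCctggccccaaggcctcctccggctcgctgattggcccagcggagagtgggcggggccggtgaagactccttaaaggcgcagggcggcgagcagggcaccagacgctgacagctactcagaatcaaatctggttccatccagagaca
Hsph1, chr5:149636266-149636565: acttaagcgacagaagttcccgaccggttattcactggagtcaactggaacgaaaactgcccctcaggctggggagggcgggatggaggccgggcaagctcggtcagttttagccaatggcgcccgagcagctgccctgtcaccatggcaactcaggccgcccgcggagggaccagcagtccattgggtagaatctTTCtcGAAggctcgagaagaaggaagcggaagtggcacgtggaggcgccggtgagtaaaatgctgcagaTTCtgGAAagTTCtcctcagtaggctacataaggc

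The Hspa1a and Hspa1b windows were identical at 296 of 300 bases (98.7%). Among other genes called in the wider set, the windows of Ptges3 and Amotl2 held neither motif. Dnaja1 had GAANNTTC in its window at chr4:40722218-40722517 and neither motif in its other windows. The called genes thus did not all carry a dyad. GAANNTTC was present in 7.86% of 32851 promoters of the table, and in 8 of 13 promoters of the heat shock list, covering 7 of its 8 genes with an entry. TTCNNGAA was present in 8.52% of all promoters and in 4 of the 13. The 13 are not all separate stretches of DNA. The Hspd1 window at chr1:55087883-55088182 and the Hspe1 window at chr1:55087898-55088197 overlap on opposite strands, and the Hsph1 windows overlap each other. Motifs in these stretches were counted more than once. These motifs were chosen after the heat shock genes had been seen, and a match is a description, not evidence of binding.

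The whole heat shock list pointed the same way, although most of its genes were not called. All 11 genes were tested and had higher fitted levels in HFpEF, with a median log2 fold change of 0.74 against −0.01 over all 1347 genes. Of the 11, 2 were called (0.148% of all genes were), 7 were higher at an unadjusted p under 0.05 (3.41% of all genes), and 10 had both HFpEF libraries above both NC libraries (17.8% of all genes). Hspe1, the mitochondrial cochaperonin, was at 206, 147, 525 and 472 CPM (log2 fold change 1.58, SE 0.38, adjusted p = 0.106 by the same edgeR test). Over 12 settings its log2 fold change ranged from 0.94 to 2.19, and 2 of them passed the adjustment. The DESeq2 adjusted p of Hspe1 was 0.9997. Hsp90aa1, the inducible cytosolic chaperone, was at 2509, 2196, 4005 and 3554 CPM (0.69, SE 0.23, adjusted p = 0.560). Hspd1, the mitochondrial chaperonin, was the gene whose diets overlapped, at 206, 61.3, 138 and 259 CPM.

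**Figure D4:**
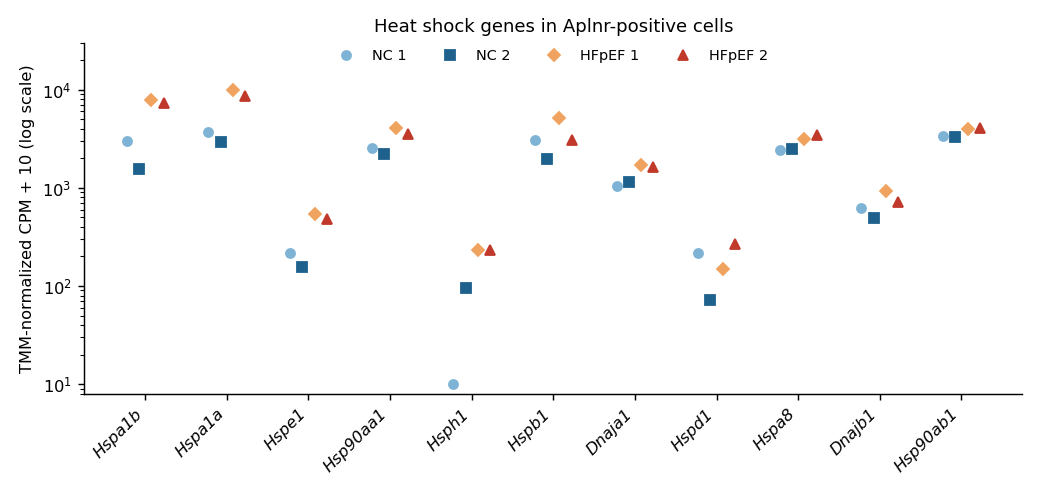
Heat shock genes in Aplnr-positive ECs (TMM-normalized CPM + 10, log axis), ordered by p, with 1 point per library. The HFpEF points of Hspa1b (7900 and 7291 CPM) and Hspa1a (9834 and 8549 CPM) lie above the NC points, and the Hspd1 points overlap.

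The same genes were higher in HFpEF in quiescent capillary ECs, where 30 of 11076 genes were called (0.271%). Hspa1a rose there by a log2 fold change of 1.35 (SE 0.20, edgeR adjusted p = 0.0374), and Hspa1b had 1.54 (SE 0.26, adjusted p = 0.0592). The rise in Aplnr-positive ECs was larger by 0.20 for Hspa1a (SE 0.40) and by 0.33 for Hspa1b (SE 0.39), an edgeR interaction with an adjusted p of 1 for both. The standard errors leave room for a difference in either direction. In the Aplnr-free ECs within the same limits, 121 of 9613 genes were called. Hspa1a rose there by 1.41 (SE 0.23, edgeR adjusted p = 0.0129) and Hspa1b by 1.65 (SE 0.28, edgeR adjusted p = 0.0180). The rise in Aplnr-positive ECs was larger by 0.14 (SE 0.35) and 0.21 (SE 0.35). Compared with vein ECs it was larger by 0.34 (SE 0.25) and 0.73 (SE 0.27, edgeR interaction, adjusted p = 0.711 for Hspa1b). The heat shock rise was thus not shown to be particular to the Aplnr-positive ECs.

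Further genes whose libraries did not overlap between the diets are given as values, since none passed the adjustment in the comparison as fitted. Some did under 1 or 2 of the alternatives. The edgeR adjusted p was 0.00149 for Dusp3, 0.0143 for Ly6c1 and 0.0498 for Ramp2 without NC library 2. It was 0.0240 for Ptges3 and 0.0198 for Amotl2 without NC library 1, and 0.0216 and 0.0435 among cells with at least 1 Aplnr UMI. The DESeq2 adjusted p was 0.9997 for each of these 5 genes. Ptges3, a cochaperone of HSP90, was at 206, 123, 497 and 396 CPM (log2 fold change 1.54, SE 0.41, edgeR adjusted p = 0.230). Amotl2, a junction protein of the Hippo pathway, had 3, 3, 11 and 71 UMIs and was at 123, 36.8, 304 and 245 CPM. Ccn1, a target of the same pathway, was at 411, 319, 912 and 686 CPM. Dusp3, Arf1 and Smdt1 were the others on the higher side.

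On the lower side Neat1, a nuclear long noncoding RNA, was at 411 and 699 CPM in NC and at 332 and 179 CPM in HFpEF (log2 fold change −1.53, SE 0.35, edgeR adjusted p = 0.0896). Over the alternatives its log2 fold change ranged from −1.76 to −0.49. The edgeR adjusted p was 0.0269 with the library number as a block, 0.000143 without NC library 1 and 0.698 among cells with at least 1 Aplnr UMI, and the DESeq2 adjusted p was 0.9997. Cdkn1a, the cell cycle inhibitor p21, was at 2468, 2281, 1215 and 1458 CPM, and Ramp2, the coreceptor for adrenomedullin, at 2056, 1435, 1050 and 841 CPM. Adm, the adrenomedullin gene itself, was at 82.3 and 61.3 CPM in NC and at 304 and 200 CPM in HFpEF (log2 fold change 1.75, adjusted p = 0.618). Ligand and coreceptor thus lay on opposite sides, neither of them called. Arhgap31, Ndufa5, Cflar, Arhgap5, Ly6c1, Sirt1 and Sec14l1 were the others on the lower side.

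**Figure D5:**
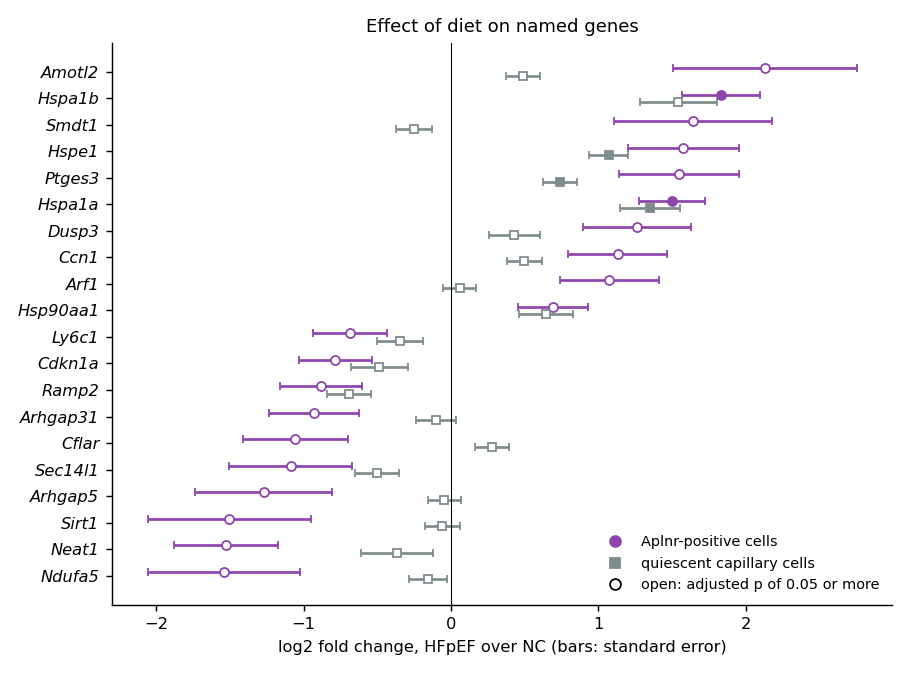
Log2 fold change of HFpEF over NC (horizontal axis; bars, standard error) for the named genes in Aplnr-positive and in quiescent capillary ECs. Filled symbols mark an adjusted p under 0.05 in edgeR's test, which in Aplnr-positive ECs are Hspa1b at 1.83 and Hspa1a at 1.5. The cell groups come from the same 4 libraries, so their points are not independent.

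Other lists held no call. Over all 1347 genes, an unadjusted p under 0.05 was found on the higher side for 3.41% and on the lower side for 2.00%, and the counts of lists below stand beside those shares. Of 8 capillary genes tested outside the rule, Btnl9, a butyrophilin-like gene of capillary ECs, had an unadjusted p under 0.05. Both HFpEF libraries were above both NC libraries for 5 of the 8 (17.8% of all genes), and the median log2 fold change was 0.23. The rule's limit on Timp4, Car4 and C1qtnf9 had kept 7.14% and 7.99% of the cells it met in NC and 34.4% and 37.3% in HFpEF. Its part in this count was not tested. In quiescent capillary ECs the median over 12 capillary genes was −0.06. Of 13 interferon gamma response genes tested, Socs3, the feedback inhibitor of cytokine signaling, was the 1 gene with p under 0.05, and the median was −0.12. Of 8 MHC genes, 3 (B2m, H2-Q7 and H2-Q6) had p under 0.05, against the 3.41% and 2.00% of all genes, and the median was 0.50. B2m, the common subunit of class I molecules, was at 4030, 3545, 5497 and 5543 CPM (log2 fold change 0.56, edgeR adjusted p = 0.721). The MHC genes include near-identical copies such as H2-Q6 and H2-Q7, whose reads may be split. Of 8 apelin receptor signaling genes tested, Gna13, a G protein subunit that acts on RhoA, was the 1 gene with p under 0.05, with 5, 19, 2 and 29 UMIs and a log2 fold change of −1.28 (SE 0.57).

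The genes that the study follows in inflammatory ECs were not called in the Aplnr-positive ECs. The study compared Cxcl1, Cxcl2 and Cxcl10 between HFpEF hearts with and without endothelial SR-B1 deletion. The contrast here is the diet. In quiescent capillary ECs the log2 fold changes of Cxcl10 and Cxcl2 were 0.84 and 0.99 (edgeR adjusted p = 0.0749 and 0.0567). Those of Cxcl1 and Irf1 were 0.39 and 0.23 there (edgeR adjusted p = 0.306 and 0.498). The rule's limits on Il6, Adamts4 and Plaur and on the interferon-induced genes had removed 32 and 19 cells beforehand. What those cells would add to the levels below was not tested. Cxcl10, the ligand of CXCR3, was at 82.3 and 209 CPM in NC and at 193 and 148 CPM in HFpEF, and the diets overlapped (log2 fold change −0.12, SE 0.53, edgeR adjusted p = 0.993). Cxcl1, Cxcl2 and Irf1 overlapped as well, with log2 fold changes of 0.28, 0.30 and −0.26 and standard errors of 0.33, 0.46 and 0.32. The direction was unstable: Cxcl10 was at 0.95 when 1 Aplnr UMI was enough (edgeR adjusted p = 0.192), and all 4 genes turned sign under an alternative. Scarb1 was too low to be tested and stood at 119, 53.5, 79.6 and 52.9 plain CPM, from 4, 6, 4 and 21 UMIs. In quiescent capillary ECs it was at 113, 47.7, 120 and 54.2 plain CPM. Library 1 was thus above library 2 in both diets, a larger gap than between the diets, and no library was grouped by it.

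A wider set of cells gave more depth. When 1 Aplnr UMI was enough, 74, 90, 181 and 824 cells entered, 4827 genes were tested and 20 were called (0.414%), 12 higher and 8 lower in HFpEF. Unadjusted, 244 genes were higher (5.05%) and 214 lower (4.43%) at p under 0.05. Hspa1a (log2 fold change 1.46, SE 0.19, edgeR adjusted p = 0.00231) and Hspa1b (1.5, SE 0.26, adjusted p = 0.0133) were called again, in a set that holds all members. Hsph1 (1.55, edgeR adjusted p = 0.0232) and Dnaja1 (0.82, adjusted p = 0.0435) joined them, so 4 of 11 heat shock genes rose. Ptges3, outside that list, also rose (1.22, edgeR adjusted p = 0.0216).

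Jag1, a Notch ligand, rose from 9.52 and 14.6 CPM to 44.6 and 70.6 CPM (log2 fold change 2.34, SE 0.50, edgeR adjusted p = 0.0435). Gbp4, an interferon-induced GTPase, and H2-Q6 rose by 1.59 and 1.24, and they were the called genes of the interferon and MHC lists, 1 of 28 and 1 of 10 genes tested, where 0.414% of all 4827 genes were called. Akap12, Amotl2 and Ccnd1 were also higher. Cldn5, a gene of the rule's EC sum, is among the 12 and its value supports nothing, which leaves 11. Of 28 interferon gamma response genes, 22 had a higher fitted level in HFpEF, with a median log2 fold change of 0.40 against −0.01 over all genes, of which 2356 of 4827 were higher. In the members alone the median of the list was −0.12, over 13 genes tested.

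Vwf fell in this wider set, from 167 and 135 CPM to 41.4 and 46.6 CPM (log2 fold change −1.71, SE 0.26, edgeR adjusted p = 0.00454). It was found in 12 of 74, 11 of 90, 6 of 181 and 30 of 824 cells. In quiescent capillary ECs the log2 fold change of Vwf was −1.61 (edgeR adjusted p = 0.0693). In the Aplnr-free ECs within the same limits it was −2.98, so the fall was not particular to Aplnr-positive cells. Igfbp5, a binding protein of insulin-like growth factors, fell by 1.80 on the log2 scale, and in NC library 2 a single cell held 63 of its 129 UMIs. Among the members alone its log2 fold change had the opposite sign, 0.91 (edgeR adjusted p = 0.985). Serpina1b fell as well, with all 16 UMIs of NC library 2 in 1 cell. Cpe, Emp2, Limch1, Tmem176b and Gm26802 were the other genes that fell. The part of single cells with many such transcripts in these calls was not tested.

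Whether diet acted differently in Aplnr-positive ECs than in other ECs was tested as an interaction within libraries. Against quiescent capillary ECs, 1 of 9314 genes was called (0.0107%), the noncoding gene Gm34455, with a difference of 2.15 (SE 0.47, edgeR adjusted p = 0.0407). Its 3, 10, 29 and 65 UMIs in the members were unevenly held, with 23 of 29 in 1 cell of HFpEF library 1 and 41 of 65 in 1 cell of HFpEF library 2. The call was lost when any 1 library was left out (edgeR adjusted p = 0.0709 to 0.949), with the difference at 1.92 to 2.60.

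The next gene was Thrsp, a lipogenic regulator, with a difference of 1.94 (SE 0.49, adjusted p = 0.341). It was at 92.8, 89.4, 126 and 172 CPM in members, on the scale of the interaction fit, and at 303, 350, 164 and 153 CPM in quiescent capillary ECs, where it fell with the diet (log2 fold change −1.04, edgeR adjusted p = 0.0156). In the NC libraries Thrsp was thus lower in the members than in quiescent capillary ECs, and in the HFpEF libraries the levels were close. Against vein ECs 0 of 3260 genes were called by edgeR (0%), with 136 at an unadjusted p under 0.05. Against the Aplnr-free ECs within the same limits, 3 of 8362 were called (0.0359%), Igfbp5, Prss23 and Bgn, on few UMIs in the members. Mgp in those Aplnr-free ECs was at 662 and 595 plain CPM in NC and at 55.5 and 100.3 plain CPM in HFpEF. In that comparison group endocardial genes summed to 300 and 232 plain CPM in NC and to 37.6 and 37.3 in HFpEF. Fibroblast genes summed to 364 and 179 plain CPM in NC and to 44.2 and 58.0 in HFpEF. Pericyte genes overlapped between the diets, at 170, 220, 265 and 176 plain CPM. In the members the endocardial and fibroblast sums did not exceed 29.7 plain CPM. The part of the comparison group's makeup in the 3 calls was not tested.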

How the data were processed

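The authors trimmed the 10x Genomics 3′ reads with fastp, aligned them to mm10 and counted UMIs with Cell Ranger 5.0.1. When aggregating, they downsampled the libraries by mapped reads per cell. The deposited values are raw UMI counts per gene and cell, summing to 30387717 and 31517933 UMIs for NC and to 11163876 and 48003732 for HFpEF. The members and gene lists were chosen with earlier results of these data known. Genotype is not given by the labels and no library was assigned one. UMIs of the chosen cells were summed per library and tested with edgeR 4.0.16 in R 4.3.3 (TMM, filterByExpr, quasi-likelihood F test, Benjamini-Hochberg adjustment, threshold 0.05), with the library as a block for differences between cell groups. Levels of cell groups were compared with a prior of 10 CPM and no test.

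Named genes were the rule genes, list members as counts with examples, the non-overlapping genes with the smallest p in each direction (up to 10), the 10 highest and 5 lowest against quiescent capillary ECs, and Scarb1, Irf1, Cxcl1, Cxcl2 and Cxcl10. Genes leading over the Aplnr-free ECs, that comparison itself, the heat shock motifs and the shares without the capillary limit were added after seeing the data. Scrublet found no usable threshold, so doublets were left in, and an alternative dropped the top-scoring cells. On simulated data of the members' comparison, 88 of 200 genes changed by a log2 of 1 and 172 of 200 changed by a log2 of 2 were recovered. Alternatives were RLE normalization, DESeq2 1.42.0, no low-count filter, a replicate block, leaving out each library, other Aplnr thresholds, a depth window, no doublets and no hemoglobin limit. GENCODE names matched 31184 of 31253 gene identifiers.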

Additional observations from a re-analysis of the deposited data

Results flagged for a closer look

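Of the tests for a difference in the diet effect between Aplnr-positive ECs and other ECs, 4 genes passed the adjustment. Against quiescent capillary ECs, Gm34455 differed by 2.15 on the log2 scale, and single cells held 23 of its 29 UMIs in HFpEF library 1 and 41 of 65 in HFpEF library 2. Against the Aplnr-free ECs within the same limits, Igfbp5 differed by 2.31, with all 12 UMIs of NC library 1 in 1 cell and all 27 of HFpEF library 1 in 1 cell.

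Bgn differed by 4.56 in the same comparison, on 0, 1, 3 and 20 UMIs in the members, and the 3 of HFpEF library 1 came from 1 cell. Prss23 differed by 11.2, on 0, 0, 2 and 21 UMIs, and this value depends on the prior count because both NC libraries were at 0. In the Aplnr-free ECs of this comparison, endocardial and fibroblast genes summed lower in HFpEF than in NC.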

How the results depend on the processing

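In Aplnr-positive ECs, edgeR called 2 genes. The count was 0 with no filter on low counts (306 genes at an unadjusted p under 0.05), 0 at 3 or more Aplnr UMIs, 0 among members with at least 1000 and under 4000 UMIs, and 20 at 1 or more Aplnr UMIs. Leaving out 1 library gave 2 to 12 calls, with 11 without NC library 1, 12 without NC library 2 and 4 without HFpEF library 2. Where this left 1 library in a diet, it was assumed to vary like the other diet. The replicate block gave 3 calls, Neat1 being added (log2 fold change −1.51, edgeR adjusted p = 0.0269). Deviations of the libraries numbered 1 from their diet means correlated across genes at r = 0.029. The sums come from few cells, whose counting error alone brings r near 0, so this cannot tell whether the numbers pair the libraries. Scarb1 was higher in library 1 than in library 2 of both diets, as given above. Whether the library numbers follow genotype is not given by the labels. Hspa1b ranged from 1.11 to 2.28 and Hspa1a from 1.08 to 1.64 over all alternatives.

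The difference from quiescent capillary ECs gave 0 calls with no filter, 0 in the depth window and 0 to 0 on leaving out a library. That from vein ECs gave 0 to 4 calls on leaving out a library (4 without NC library 2, 1 without HFpEF library 2), and that from Aplnr-free ECs 0 to 3. The HFpEF minus NC share was 0.393 percentage points, and became 1.75 after thinning, 2.84 at 1 or more Aplnr UMIs, 0.0728 at 3 or more, 0.777 thinned with no capillary limit and −2.03 with no capillary limit. Leaving out a library gave 0.208 to 0.578. With at least 2 Aplnr UMIs as the only limit on ECs, the mean shares were 6.54% in NC and 2.86% in HFpEF. Thinned, with at least 1 Aplnr UMI and no other limit, they were 5.64% in NC and 6.75% in HFpEF.

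Log2 fold changes that turned sign were Cflar (0.030 at 1 or more Aplnr UMIs), Irf1 (0.12 without HFpEF library 2, range on leaving out a library −0.37 to 0.12), Cxcl1 (−0.0018 without NC library 1, range −0.0018 to 1.28), Cxcl2 (−0.12 without NC library 1 and −0.13 without HFpEF library 1, range −0.13 to 2.18) and Cxcl10 (0.074 by DESeq2 and 0.95 at 1 or more Aplnr UMIs). The causes were not tested. The 12 members of NC library 1 limit every level printed for it.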
